A study of Mus musculus with 4 samples.

Results

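The integrin and focal adhesion genes of MC3T3-E1 preosteoblasts were followed across 2 culture media and 2 times. A gene was taken as a member by its name alone, without use of its signal: every gene whose array symbol is Itga or Itgb followed by a number or single letter, and 13 adhesion plaque proteins (Tln1, Tln2, Vcl, Pxn, Ilk, Zyx, Fermt2, Fermt3, Parva, Parvb, Lims1, Tns1 and Tns3). This gave 38 of the 18193 genes named on the array, made up of 16 integrin alpha subunits, 9 beta subunits and the 13 plaque proteins, read by 92 probe sets. Ptk2 and Fermt1, which the rule also names, are not analysed here.

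MC3T3-E1 is a permanent line of fibroblast-like preosteoblasts from the skull cap (calvaria) of newborn C57BL/6 mice. The 4 groups, with 1 Affymetrix mouse expression array each, were osteogenic medium at day 6, normal medium at day 6, osteogenic medium at day 3 and normal medium at day 3. All cells grew at 37 °C in MEM α with 10% fetal bovine serum and 5% CO2. Osteogenic medium added ascorbic acid 2-phosphate at 150 µM, a stable form of vitamin C, and beta-glycerophosphate at 10 mM, a phosphate donor, and normal medium lacked both. All 4 cultures come from 1 cell line, and there were no replicate cultures. Differences between single arrays therefore have no test and no error that covers cultures, and their number sets the limit to precision.

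Integrins are receptors of 1 alpha and 1 beta chain that span the membrane and hold matrix proteins outside the cell. Inside, talins and kindlins bind the beta chain and switch the receptor on, and vinculin, paxillin, zyxin, tensins and the complex of integrin-linked kinase, PINCH and parvin join it to actin filaments at focal adhesions. In osteoblasts the beta-1 and alpha-v integrins are known to take part in attachment to collagen, fibronectin and bone sialoprotein. Alpha-v with beta-8 is known for releasing active TGF-beta from its latent complex, and alpha-8 with beta-1 for binding nephronectin, a matrix protein that osteoblasts secrete.

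The promoters shown are those of the 3 members that the results below turn on most, Itgb8, Itgav and Itga8, and of Npnt, which encodes nephronectin. Each is the RefSeq window of 300 bases on mouse build GRCm38.p6, 250 bases before the gene's start and 50 after it, read 5′ to 3′ on the gene's strand. They lie at chr12:119238227-119238526 (Itgb8, minus strand), chr2:83724147-83724446 (Itgav, plus strand), chr2:12301895-12302194 (Itga8, minus strand) and chr3:132950242-132950541 (Npnt, minus strand, the first of its windows). Capitals mark matches to the motifs searched.
Itgb8: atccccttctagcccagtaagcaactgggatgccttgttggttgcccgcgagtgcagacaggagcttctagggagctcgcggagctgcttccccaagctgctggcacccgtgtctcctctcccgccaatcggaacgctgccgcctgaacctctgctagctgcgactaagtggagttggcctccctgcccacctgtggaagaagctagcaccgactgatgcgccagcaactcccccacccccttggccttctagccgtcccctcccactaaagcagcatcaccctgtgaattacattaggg
Itgav: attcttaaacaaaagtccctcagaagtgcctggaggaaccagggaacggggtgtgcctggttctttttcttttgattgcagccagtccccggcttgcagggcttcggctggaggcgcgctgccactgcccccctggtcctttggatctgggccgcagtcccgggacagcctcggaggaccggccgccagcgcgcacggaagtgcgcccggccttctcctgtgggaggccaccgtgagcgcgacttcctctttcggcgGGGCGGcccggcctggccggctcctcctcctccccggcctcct
Itga8: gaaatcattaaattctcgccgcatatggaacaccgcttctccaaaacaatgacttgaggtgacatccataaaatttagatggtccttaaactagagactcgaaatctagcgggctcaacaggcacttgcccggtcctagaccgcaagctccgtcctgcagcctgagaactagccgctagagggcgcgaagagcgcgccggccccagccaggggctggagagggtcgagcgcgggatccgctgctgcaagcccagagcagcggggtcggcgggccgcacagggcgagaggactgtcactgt
Npnt: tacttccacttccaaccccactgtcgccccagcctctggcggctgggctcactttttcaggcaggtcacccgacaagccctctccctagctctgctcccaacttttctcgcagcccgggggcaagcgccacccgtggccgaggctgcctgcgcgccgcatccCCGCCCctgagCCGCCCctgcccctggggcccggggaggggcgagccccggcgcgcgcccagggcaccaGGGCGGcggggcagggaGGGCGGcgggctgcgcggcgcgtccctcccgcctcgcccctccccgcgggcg
Of 5 motifs searched on both strands, matches in these windows were all to the GC box, with 4 in Npnt, 1 in Itgav and 0 in Itgb8 and Itga8. Windows were found for 28 of the 38 members, 33 windows in all. The GC box (GGGCGG) stood in 17 of the 33 (51.5%) and in 35.7% of all 32851 mouse windows. The RUNX core (TGTGGT) stood in 6 (18.2%) against 16.8% of all, the AP-1 site (TGANTCA) in 4 (12.1%) against 7.81%, the TATA box (TATAAA) in 1 (3.03%) against 13.6%, and the cyclic AMP element (TGACGTCA) in 0 against 1.79%. These letters describe the windows and show no bound factor.

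Signals are the deposited intensities after a shift of each array to a common 75th percentile. The floor is a signal of 57.8, the median of all probe sets, below which values have no order. A gene counts as measured in a comparison if its brightest probe set is above the floor on at least 1 of the arrays compared, and in counts as higher or lower at 2-fold or more, a log2 difference of 1. A side at the floor makes the fold a bound, written "at least". Of the 38 members, 32 were above the floor on at least 1 array and 23 on all 4. The 4 alpha subunits Itga2, Itga4, Itgam and Itgax and the beta subunits Itgb6 and Itgb7 were below it everywhere. Where a gene had several probe sets, their disagreement gave an SD of 0.223 at day 6 and 0.244 at day 3 for a log2 medium difference. This is an error of the probes and leaves out that of cultures.

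Across 10250 genes, which are not independent replicates, the arrays correlated pairwise with Pearson's r of 0.950 to 0.985. Pairs with the osteogenic day 6 array were the lowest, at 0.950 to 0.961, against 0.968 to 0.985 among the others. The osteogenic day 6 array differed from the others most in 1 control, the 5′ end of 18S ribosomal RNA, at 739 against 5137 to 9193. It was also lowest at the 3′ end of 18S, at 230 against 264 to 304. Its ratio of 3′ to 5′ signal was the highest for Actb, at 1.25 against 1.17 to 1.23. For Gapdh that ratio was 0.763, against 0.756 to 0.769 on the others. The part of this in any result with that array was not tested. Of 9 osteoblast markers the 7 analysed here were all above the floor on at least 1 array, with summed signals of 130407 and 109061 in osteogenic and normal medium at day 6, against 121258 and 134094 at day 3. Col1a1 and Col1a2 made up most of each sum, with log2 medium differences of -0.21 and -0.26 at day 3. At both days 4 of the 7 (Alpl, Ibsp, Dmp1 and, by bounds, Phex) were higher in osteogenic medium by 2-fold and 0 were lower. Of all measured genes, 4.18% were higher at day 6 and 1.99% at day 3. In bulk RNA, fewer cells of a type and less RNA per cell cannot be told apart.

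**Figure D1:**
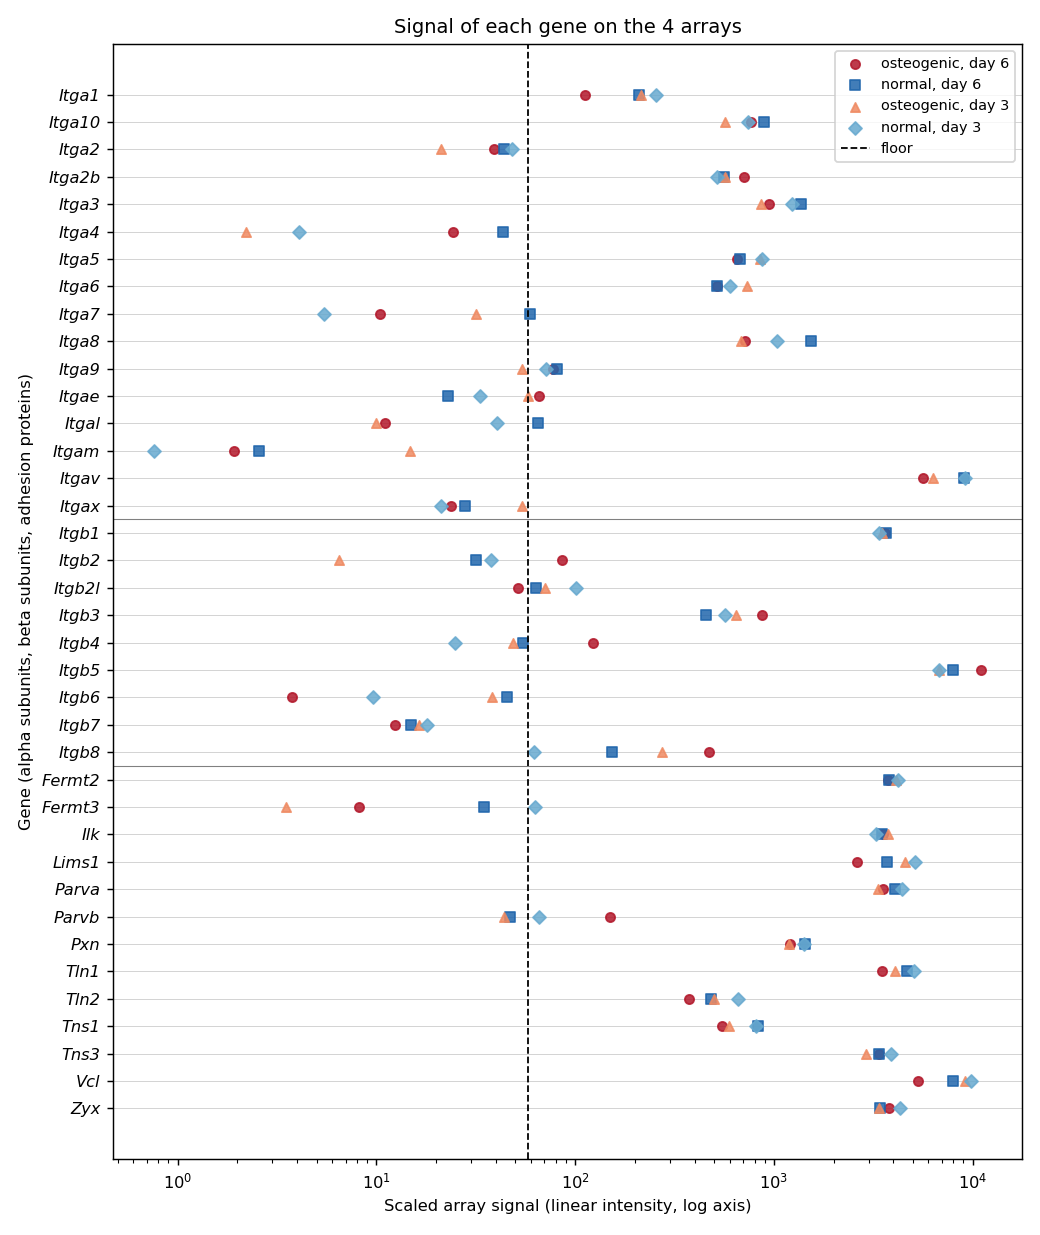
Signal (log scale, intensity units) of each of the 38 integrin and focal adhesion genes on each of the 4 arrays, with the floor of 57.8 as a dashed line. Itgb8 is higher in osteogenic than normal medium at both days, and left of the line values have no order.

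Between media the gene set held 1 receptor subunit, Itgb8, that was higher in osteogenic medium at both days, and 1, Itga8, that was lower by 2-fold at day 6. At day 6, 31 members were measured, of which 3 were higher (Itgb8, Itgb4 and Parvb) and 1 was lower (Itga8). Over all measured genes 4.18% were higher and 2.78% lower, 6.96% in either direction, and 2 of the 4 members past 2-fold, Itgb4 and Parvb, had only bounds. At day 3, 28 members were measured, and Itgb8 was the 1 member higher and 0 were lower, where 1.99% of all genes were higher and 1.59% lower, 3.57% in either direction. The members measured had a median log2 difference of -0.05 at day 6 and -0.22 at day 3, beside 0.01 at each day over all measured genes. At day 6, 20 of 31 lay below zero, and at day 3, 21 of 28, compared with 48.8% and 49.0% of all genes. Of 27 members measured at both days, 17 lay below zero at both, 6 above at both (Ilk, Itga2b, Itga6, Itgae, Itgb3 and Itgb8), and 4 (Itgb1, Itgb5, Parvb and Zyx) had opposite signs. Other scalings turned the sign of differences within 0.05 of zero, those of Ilk, Itga6, Itgb1 and Tns3 at day 6 and of Itgb5 at day 3. The probe set rule turned more, among them Zyx and Itga5 at day 6 and Itgb3, Pxn, Lims1 and Fermt2 at day 3. With probe sets averaged, 12 members lay below zero at both days, 5 above and 10 had opposite signs, so the count below zero rests on the choice of the brightest probe set.

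**Figure D2:**
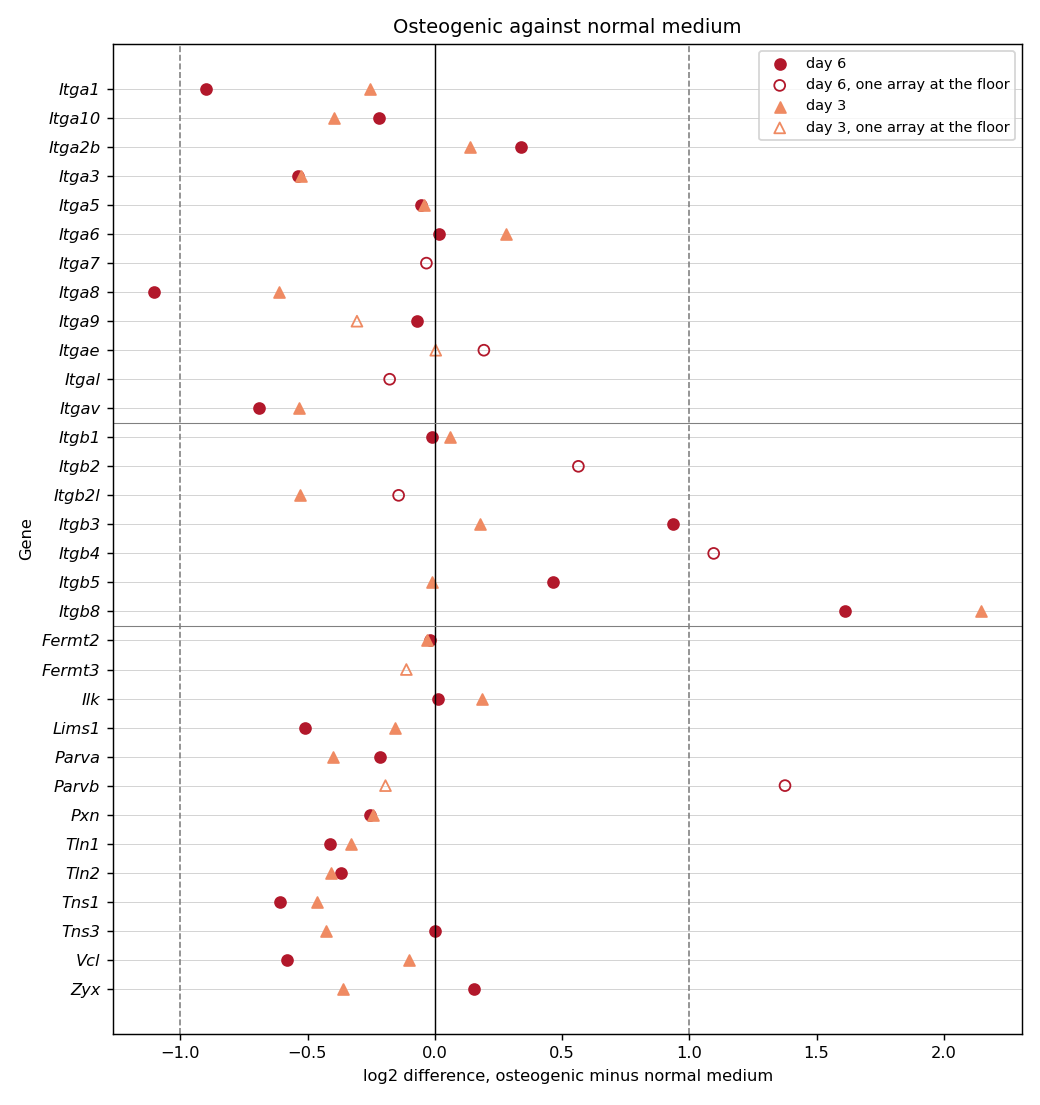
Log2 difference of osteogenic over normal medium at day 6 and day 3 for each measured member, with filled points where both arrays were above the floor and open points where 1 was at it. Itgb8 lies at 1.61 and 2.15, Itga8 at -1.10 and -0.61, and most plaque proteins lie below zero by less than the dashed 2-fold line.

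Itgb8, the beta chain of the receptor that activates latent TGF-beta, had a signal of 471 in osteogenic and 154 in normal medium at day 6. At day 3 its signals were 273 in osteogenic and 61.8 in normal medium, the last just above the floor. Both osteogenic arrays were thus above both normal arrays, by 3.06-fold at day 6 and 4.43-fold at day 3. A limma fit took medium and day as terms over the 4 arrays and left 1 residual degree of freedom. In it the Itgb8 medium effect was 1.88 ± 0.21 (SE) on the log2 scale, with an adjusted p of 0.172 over 12503 genes. With the gene's own variance in that fit the adjusted p was 0.744. A single probe set reads Itgb8, so no other probe set could check it.

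Its known partner chain is alpha-v. Itgav, the alpha chain of the vitronectin receptors, had signals of 5604 in osteogenic and 9054 in normal medium at day 6, and 6302 in osteogenic and 9120.2 in normal medium at day 3. The osteogenic arrays were lower at both days, by 0.69 and 0.53 on the log2 scale, which is beyond 2 SD of the probe error but short of 2-fold. The other measured Itgav probe set was also below zero, at -0.13 and -0.24, and the mean over all its probe sets, which includes 3 at the floor, was -0.16 at both days. The limma fit gave Itgav a medium effect of -0.61 with an adjusted p of 0.287. The partner chains Itgb8 and Itgav thus lay on opposite sides of zero at both days.

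The other known partners of alpha-v that were measured lay nearer zero than Itgb8. Itgb3, the beta chain of the classical vitronectin receptor, had signals of 872 in osteogenic and 455 in normal medium at day 6, a difference of 0.94. At day 3 it had 643 in osteogenic and 568 in normal medium, a difference of 0.18. Its other probe set, near the floor, read -0.05 and -0.35, and the averages were 0.44 at day 6 and -0.09 at day 3. Itgb5, the beta chain of the other widespread vitronectin receptor, had signals of 11038 in osteogenic and 8006 in normal medium at day 6, against 6744 and 6790.5 at day 3. Its medium difference was 0.46 at day 6 and -0.01 at day 3, and its 4 probe sets ranged from 0.37 to 0.48 at day 6 and from -0.36 to -0.01 at day 3. Itgb1, the common beta chain that pairs with many alpha chains, was near zero in its brightest probe set, with 3622 in osteogenic and 3654 in normal medium at day 6 and 3515 and 3371 at day 3. At day 3 its other bright probe sets read 0.53 and -0.16, against 0.06 in the brightest.

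Itga8, the alpha chain of the nephronectin receptor, had signals of 719.9 in osteogenic and 1545 in normal medium at day 6. At day 3 it had 679.9 in osteogenic and 1039.8 in normal medium. It was 2.15-fold lower in osteogenic medium at day 6 and 1.53-fold lower at day 3. Its other probe set had differences of -0.72 and -0.58, and with the mean of both probe sets the day 6 difference was -0.91, short of 2-fold. The limma fit gave a medium effect of -0.86 ± 0.21 (SE), with an adjusted p of 0.254.

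None of the remaining alpha chains passed 2-fold. Itga3, a laminin receptor chain, had 944 in osteogenic and 1372 in normal medium at day 6, and 859 and 1237 at day 3, lower by 0.54 and 0.53. All 3 of its probe sets lay below zero at both days. Itga6, another laminin receptor chain, had differences of 0.01 and 0.28, and 0.17 and 0.47 in its other probe set. Of the collagen receptor chains, Itga1 had 113 in osteogenic and 210.1 in normal medium at day 6, a difference of -0.90, and -0.25 at day 3. Its other probe set gave the reverse order, with -0.03 (a bound) and -0.65, and the averages were -0.47 and -0.45. Itga10, known from cartilage, was at -0.22 at day 6 and -0.40 at day 3. Itga5, the alpha chain of the fibronectin receptor, was at -0.05 and -0.04, but its dimmer probe set read 0.33 and -0.67. Itga9, which binds tenascin-C, was close to the floor, at 77.1 in osteogenic and 80.9 in normal medium at day 6.

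Itgb4, the hemidesmosome chain of epithelia that pairs with alpha-6, had a signal of 124 in osteogenic medium at day 6 and was below the floor on the other 3 arrays, so it was at least 2.14-fold higher there than in normal medium. A floor at the 60th percentile, or a pseudocount of 50, took that call away. Of the 4 epithelial markers above the floor, Cdh1 and Krt14 were also higher in osteogenic medium at both days, while Epcam was at 0.71 at day 6 and -0.66 at day 3 and Krt8 at -0.01 at day 3. The 6 epithelial markers summed to 1028 in osteogenic and 281 in normal medium at day 6 and to 763 and 477 at day 3. Of them, Krt5 and Krt18 were below the floor on every array, and the part of epithelial marker RNA in the Itgb4 value was not tested.

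Integrin chains of leukocytes had low signals. Itgam, Itgax and Itgb7 were below the floor on every array. Itgal, Itgae and Itgb2, chains of leukocyte integrins, passed the floor on 1 or 2 arrays with signals no higher than 85.5. Among 11 leukocyte markers 6, among them Ptprc and Cd3e, were below the floor everywhere, and the summed signal ran from 1050.3 to 1367. The other 5 (Lyz2, Cd74, Csf1r, Cd14 and Laptm5) were above the floor on all 4 arrays. Lyz2 was the highest, at 223 to 526, with medium differences of -1.24 at day 6 and -0.06 at day 3. Itga2b, the platelet alpha chain, had 707 in osteogenic and 559 in normal medium at day 6 and 569 and 517 at day 3, differences of 0.34 and 0.14. Of the megakaryocyte markers Gp1bb was highest, at 283 to 401, and Ppbp lowest. Ppbp and Gp9 were below the floor on every array, and Pf4 was above it on 3. Itga7, a laminin receptor chain of muscle, and Itgb2l passed the floor on some arrays and were not past 2-fold in any comparison.

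Among the plaque proteins most differences between media were small and below zero. Of 12 measured at day 6, 9 lay below zero, with a median of -0.23, and of 13 measured at day 3, 12 did, with a median of -0.24. Of all measured genes, 48.8% and 49.0% did. These counts rest on the brightest probe sets. With probe sets averaged, Fermt2, Lims1 and Pxn turned above zero at day 3, while at day 6 Tns3 turned above and Zyx below. The talins, which link the beta chain to actin, were lower by 0.41 (Tln1) and 0.37 (Tln2) at day 6 and by 0.33 and 0.41 at day 3. The next brightest probe set of Tln1 had the opposite sign at both days, and its dimmest, measured at day 3 alone, had the same sign. The next brightest probe set of Tln2 had the opposite sign at day 6. Paxillin (Pxn), a scaffold protein, was at -0.25 and -0.24, but at day 3 its next brightest probe set read 0.02 and its dimmest 0.56. The actin linker tensin-1 (Tns1) was at -0.61 and -0.46. Tns1 had signals of 546 in osteogenic and 832 in normal medium at day 6, against 593 and 816 at day 3. The kindlin gene Fermt2 was at -0.02 and -0.03, less than the probe error. Kindlin-3 (Fermt3), known from blood cells, was above the floor on the normal day 3 array only, at 62.5.

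The kinase complex beneath the integrins was uneven. Ilk, its scaffold, was at 0.01 at day 6 and 0.19 at day 3. Lims1, which encodes PINCH, had 2618 in osteogenic and 3728 in normal medium at day 6, a difference of -0.51, and -0.16 at day 3. Parva, which encodes alpha-parvin, was at -0.21 and -0.40, while its other probe set read -1.21 and -0.12. Parvb, beta-parvin, had 150.1 in osteogenic medium at day 6, where normal medium was at the floor, so it was at least 2.60-fold higher. At day 3 Parvb was at the floor in osteogenic medium and had 66.1 in normal medium. A floor at the 60th percentile, or the mean of probe sets, took that call away. Tns3, another tensin, had 3393 in both media at day 6 and was at -0.43 at day 3. Zyx, zyxin, was at 0.15 and -0.36, while its dimmer probe set read -0.68 and -1.94.

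Vcl, vinculin, which strengthens the tie between talin and actin, had 5326 in osteogenic and 7954 in normal medium at day 6, a difference of -0.58. At day 3 it had 9108 in osteogenic and 9783 in normal medium, a difference of -0.10. Its other probe set read -0.97 and -0.09, so both probe sets placed the larger difference at day 6. Where a member's brightest and next brightest probe sets were above the floor on both arrays compared, their signs were the same for 12 of 17 at day 6 and 14 of 18 at day 3. Measured pairs with a side at the floor were left out. At day 6 these had like signs for Itga1 and Itga9 and opposite signs for Itgb3 and Itgb2l. At day 3 they had like signs for Itga9 and opposite signs for Itgb3.

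**Figure D3:**
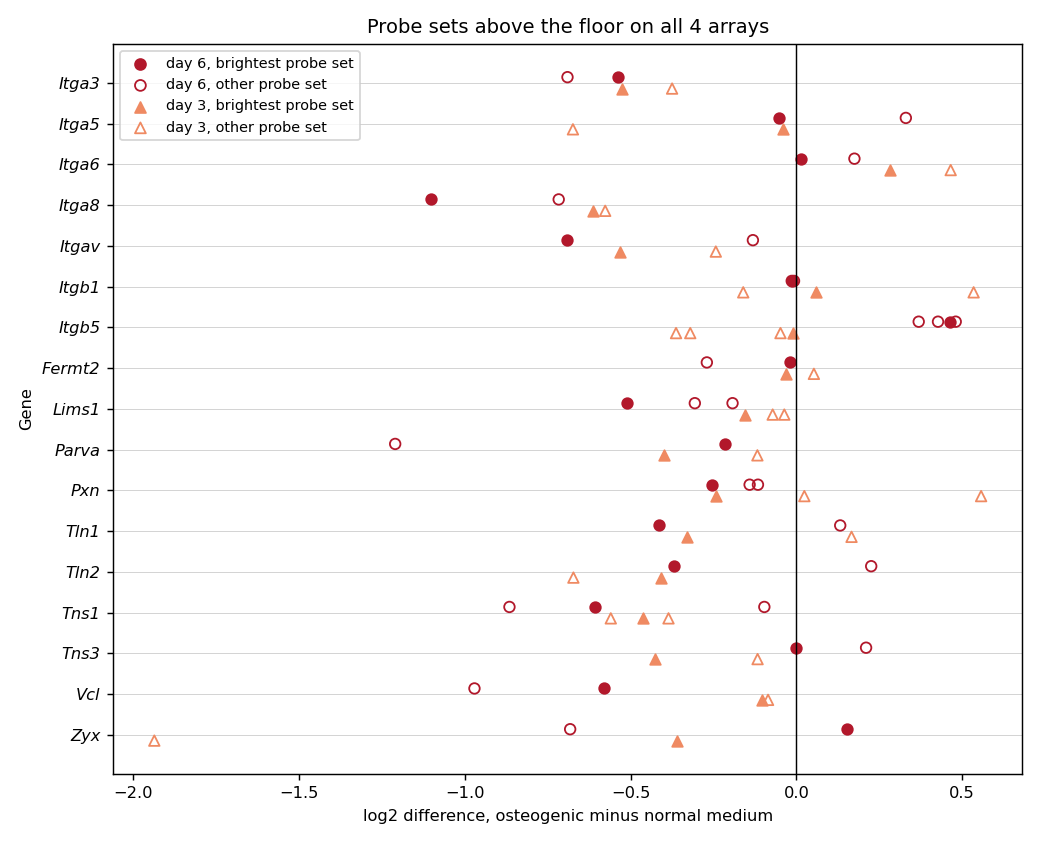
Log2 medium difference at day 6 (circles) and day 3 (triangles) of the brightest probe set (filled) and the other probe sets (open) of each member with more than 1 above the floor on all 4 arrays. All probe sets shown for Itga3, Itga8, Itgav and Vcl lie below zero at both days, while those of Itga5, Tln1 and Zyx spread further than the medium differences themselves.

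Over both days the limma fit found 0 of 12503 genes past an adjusted p of 0.05 for the medium, with moderated variances or with each gene's own variance, and the lowest adjusted p values were 0.104 and 0.227. At an unadjusted p under 0.05 there were 1737 genes (13.9%) with moderated variances, among them 5 of 32 members: Itgb8, Itga8, Itgav, Itga3 and Tns1. With own variances there were 848 genes (6.78%) and 3 members, Itga3, Pxn and Tln2. Both shares of members are near those of all genes. At both days, 4 members passed 2 SD of the probe error in the same direction: Itga3, Itga8 and Itgav were lower and Itgb8 was higher in osteogenic medium. These were 4 of 27 members measured at both days, where 9.54% of 11259 genes did so.

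Between days, 6.32% of all measured genes passed 2-fold in osteogenic and 1.48% in normal medium. At day 6 against day 3 in osteogenic medium, 29 members were measured, of which Itgb4 and Parvb, both at the floor there at day 3, were higher and 0 were lower, where 3.7% of all genes were higher and 2.62% lower. In normal medium Itgb8 was the 1 higher member of 29 and 0 were lower, where 0.741% of all genes were higher and 0.741% lower. The members' median was 0.08 in osteogenic and -0.10 in normal medium, beside -0.0012 and -0.015 over all genes. These time comparisons share arrays with the medium comparisons.

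Itgb8 was 1.72-fold higher at day 6 than at day 3 in osteogenic medium and 2.50-fold in normal medium, the second set against a day 3 signal near the floor. Itgb5 was 0.71 higher at day 6 in osteogenic medium, where its other 3 probe sets read higher still, and 0.24 higher in normal medium. Vcl was lower at day 6 by 0.77 in osteogenic and 0.30 in normal medium, and its other probe set by 1.20 and 0.32. Lims1 was at -0.81 in osteogenic and -0.46 in normal medium, and with probe sets averaged at -0.33 and -0.08. Itga1 was at -0.93 and -0.29, but its other probe set gave the reverse order, with -0.10 (a bound) and -0.73, and the averages were -0.52 and -0.51. Itga8 went the other way in normal medium, 0.57 higher at day 6, and was level in osteogenic medium at 0.08. Itga5 was at -0.38 in osteogenic and -0.37 in normal medium, but its dimmer probe set read -0.01 and -1.02.

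**Figure D4:**
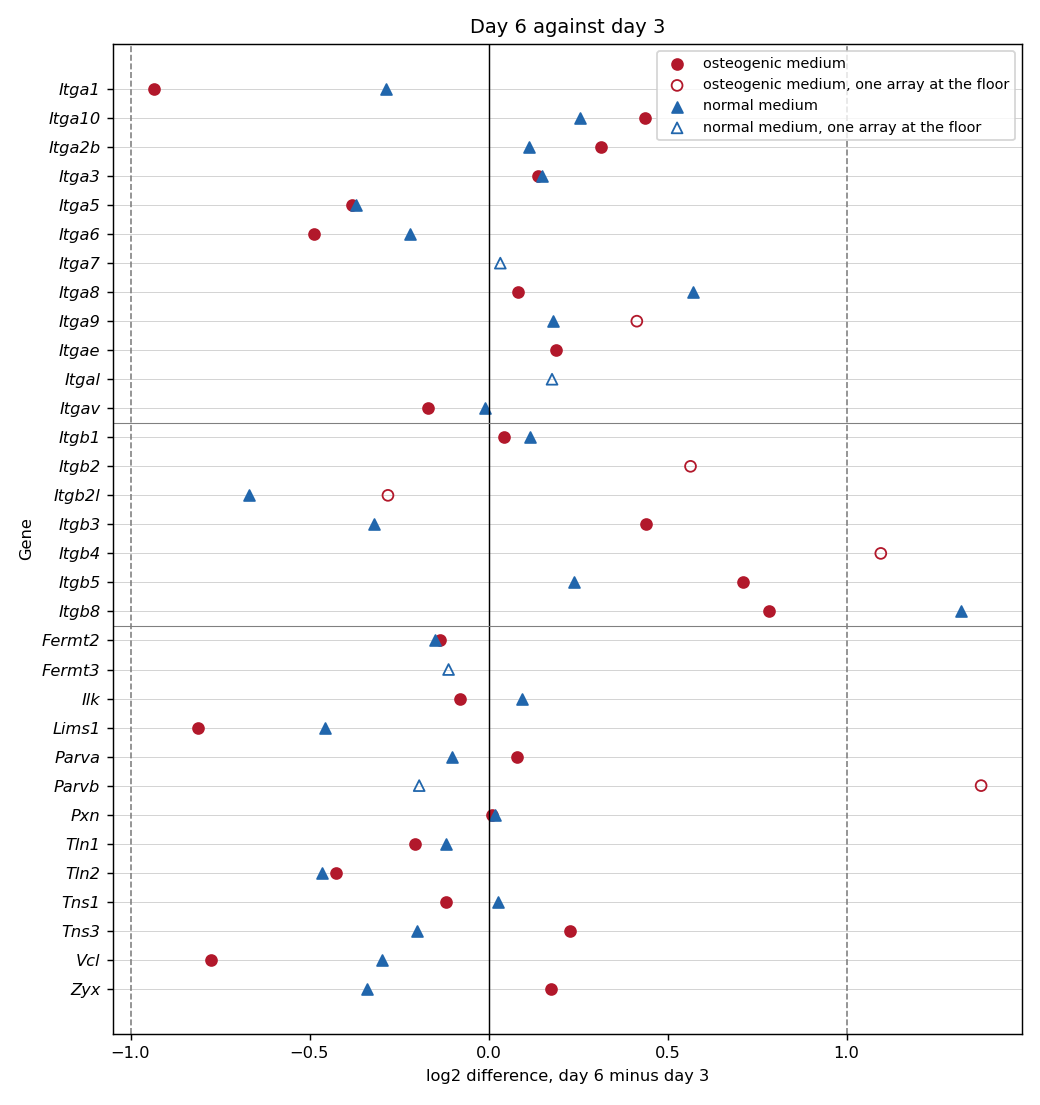
Log2 difference of day 6 over day 3 in osteogenic and in normal medium for each measured member, with open points where 1 array was at the floor. By their brightest probe sets, Vcl, Lims1 and Itga1 lie further below zero in osteogenic than in normal medium, and Itgb5 further above it, but the order for Itga1 does not hold in its other probe set.

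Among ligands of integrins, most of them matrix proteins, genes past 2-fold included partners of Itga8 and of alpha-v. The list was chosen with earlier results of these data known, so its counts beside the shares of all genes are no test. Cdh1 in it is a protein of the cell surface, not of the matrix, and is also among the epithelial markers. Of 31 measured ligands at day 6, 7 were higher in osteogenic medium (Ibsp, Tnc, Tnn, Lama1, Tgfb1, Tgfbi and Cdh1) and 2 lower (Npnt and Nid2), with a median of 0.06, set against 4.18% and 2.78% of all genes. At day 3, Ibsp and Cdh1 were higher and 0 of 30 lower, with a median of -0.23, set against 1.99% and 1.59% of all genes. Npnt, the ligand of alpha-8 beta-1, had signals of 11925 in osteogenic and 32627 in normal medium at day 6, 2.74-fold lower, and 27030.0 and 38404 at day 3, a difference of -0.51. The differences of Npnt and Itga8 thus both lay below zero at both days. Nid2, a basement membrane linker, had 962 in osteogenic and 2572 in normal medium at day 6, and a difference of -0.72 at day 3.

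Ligands of alpha-v integrins were among those higher. Tgfb1, whose latent form alpha-v beta-8 binds, had 2355 in osteogenic and 718 in normal medium at day 6, and 1166 and 1052 at day 3. Tnc, tenascin-C, had 10675 in osteogenic and 2448 in normal medium at day 6, and 6322 and 4212 at day 3. Tgfbi, a matrix protein induced by TGF-beta, had 3580.2 in osteogenic and 862 in normal medium at day 6, with a difference of 2.05, and 0.60 at day 3. Ibsp, bone sialoprotein, which carries the RGD motif that integrins bind, differed by 5.44 at day 6 and 3.53 at day 3. Fn1, fibronectin, was at 0.10 and -0.39. Other ligands of the list lay on both sides of zero. Postn was at -0.67 and -0.34, Thbs1 at -0.40 and -0.30 and Mfge8 at 0.69 and 0.16. Vtn, vitronectin, was below the floor on every array.

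**Figure D5:**
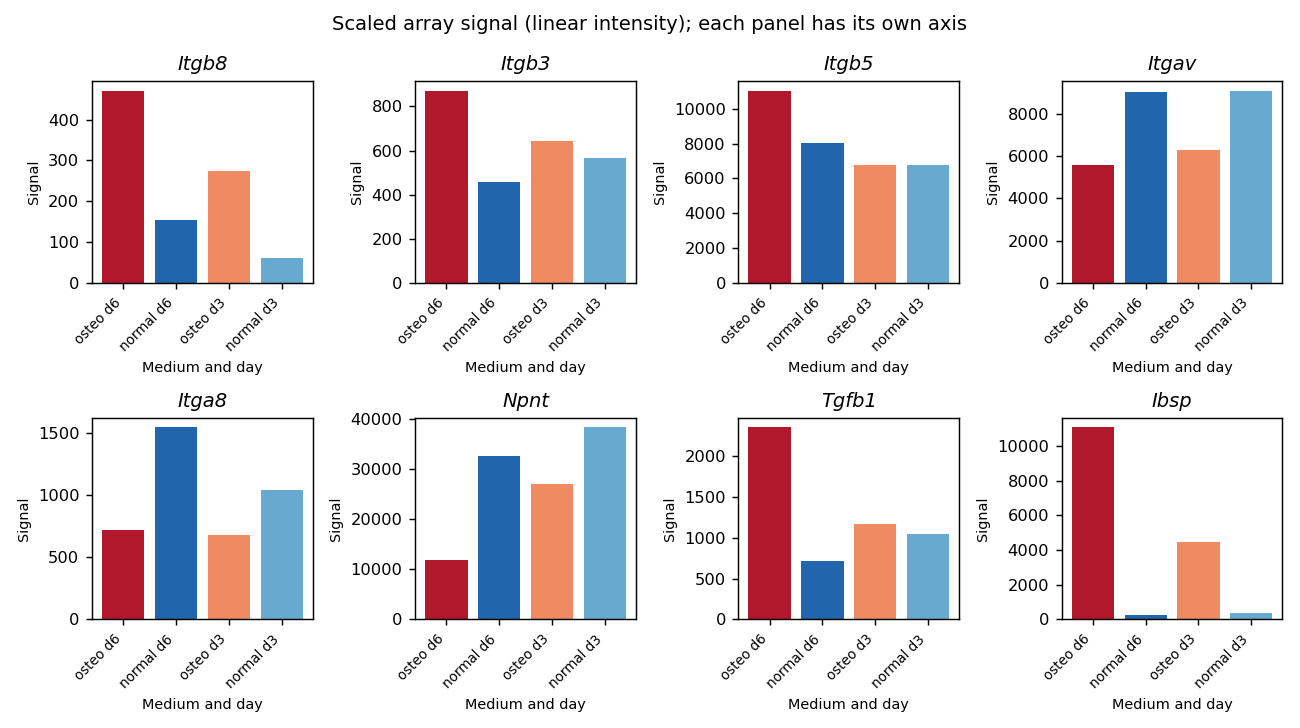
Signal (linear intensity, bars from 0, each panel with its own axis) on the 4 arrays of 5 integrin chains and of 3 ligands of integrins. Itga8 and Npnt are lower in osteogenic medium at both days, while Itgb8, Itgb3, Tgfb1 and Ibsp are higher at day 6.

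For the inner partners of the adhesion complex, the shares to set the counts against are the 6.96% of all genes past 2-fold at day 6 and 3.57% at day 3. These lists too were chosen with earlier results of these data known. Of 26 signalling adaptors and kinases measured at each day, 18 lay below zero at day 6 and 16 at day 3, and the 1 gene past 2-fold was Ptk2b, a relative of focal adhesion kinase, with a bound of -1.05 at day 6 and 0.56 at day 3. Of 31 actin linkers and LIM proteins at day 6, Pdlim1 (1.41) and Tes (1.01) were higher, and of 32 at day 3, Sorbs3 (-1.01, against 0.38 at day 6) was lower, with medians of -0.08 and -0.13. Pdlim1 had 2478 in osteogenic and 935 in normal medium at day 6. Of 7 measured paralogs and inhibitors none passed 2-fold at either day, among them Itgb1bp1, an inhibitor that binds the beta-1 tail, at 0.59 and 0.51. Of 14 other matrix receptors and integrin partners, Slc3a2 (1.20), the amino acid transporter chain that binds beta integrins, and Plaur (1.24), the urokinase receptor, were higher at day 6, and none passed 2-fold at day 3. Slc3a2 had 8390.3 in osteogenic and 3658 in normal medium at day 6, against 3886 and 4145 at day 3.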

How the data were processed

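The deposited values are linear intensity, 1 for each probe set on each array, with a mean of 500 on each array once its lowest and highest 2% of values were left out, tested on the deposited values. The software and summarisation behind them are not named in the labels. Per the labels' protocols, 500 ng of total RNA with integrity numbers above 9.5 gave biotin-labelled cRNA. With every array at 1 mean, a change in RNA content of the cells cannot be seen.

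Of 45101 probe sets, 64 were controls, 34945 had 1 gene symbol in GEO's platform annotation, 932 several and 9160 none. Only those with 1 symbol were used, and all 38 members kept their symbol in RefSeq. Arrays were shifted to a common 75th percentile by factors of 0.991, 0.988, 1.02 and 1.003 (osteogenic day 6, normal day 6, osteogenic day 3, normal day 3), floored at the pooled 50th percentile and put on the log2 scale. A gene was its probe set with the highest mean. The probe error is the median absolute difference between the brightest pair of a gene's probe sets above the floor on both arrays compared, scaled to an SD. Groups came from the sample labels. Single-day and between-day differences have no test. The medium over both days was tested with limma 3.58.1 in R 4.3.3 (lmFit and eBayes, medium and day, Benjamini-Hochberg over 12503 genes), whose residual mixes error with any medium effect that depends on the day. The steps were tested on simulated data. Other steps used Python 3.11.15, numpy 2.4.6, pandas 2.3.3 and scipy 1.17.1.

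The members, 5 pathway lists, 7 marker lists and tests were chosen with earlier results of these data known. Genes named were all members, list genes past 2-fold between media at either day with up to 2 of the highest mean signal per list, and the highest and lowest markers. Itgb1bp1, Fn1, Mfge8, Postn, Thbs1 and Vtn were named outside this rule. These, the epithelial, leukocyte and megakaryocyte marker values and the promoters of the genes shown were picked after their values were seen. Alternatives were other scalings, floors, filters, probe set rules, a pseudocount of 50 and a 1.5-fold threshold.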

Additional observations from a re-analysis of the deposited data

How the results depend on the processing

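The number of members past 2-fold was 4 of 31 between media at day 6 and 1 of 28 at day 3. Between days it was 2 of 29 in osteogenic and 1 of 29 in normal medium. Shares of all measured genes past 2-fold were 6.96%, 3.57%, 6.32% and 1.48% in that order, and brackets below give such shares for each setting. With the floor at the 60th percentile it was 2 of 25 at day 6 (5.82%) and 0 for both time comparisons (5.33% in osteogenic and 0.591% in normal medium). A pseudocount of 50 gave 2 of 28 at day 3 (3.33%) and 0 of 29 in normal medium between days (1.78%). With neither floor nor filter it was 10, 9, 9 and 6 in the same order. With members above the floor on all 4 arrays it was 2 of 23 at day 6 (6.19%) and 0 in osteogenic medium between days (5.78%). With probe sets averaged it was 2 of 31 at day 6 (4.72%), 2 of 28 at day 3 (2.16%) and 1 of 29 in osteogenic medium between days (4.25%). Without probe sets of the _x_at and _s_at kinds it was 2 of 29 in normal medium between days (1.47%). At 1.5-fold it was 8, 2, 7 and 2 (20.5%, 15.7%, 19.3% and 7.89%). The cause was not tested, apart from the lower threshold and the stricter filters, which by construction admit more or fewer genes. The limma count was 0 in every setting, with a lowest adjusted p from 0.0756 to 0.664. Medium calls for Itgb8 held in all 10 alternatives, at 1.35 to 1.61 at day 6 and 1.19 to 2.19 at day 3. Some of these could not change its values, because Itgb8 has 1 probe set, above the floor on all 4 arrays. They are the lower floor, no floor or filter, the filter for all 4 arrays and the probe set rules. No member or median changed its sign past 2-fold.

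The limma fit with day as a term compares the media within each day. No paired analysis was possible beyond it, because the labels carry no replicate numbers and each group has 1 array. Members near the floor, among them Itgb4, Parvb, Itgb2 and Itga9, have bounds or signals close to it. Culture, array and group cannot be told apart, so no value here separates the medium from the single dish or hybridisation that carried it.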
